A study of Homo sapiens with 12 samples.

Results

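FOS, FOSL1, JUN, JUNB, EGR1, BTG2, IER2, IER3, DUSP1 and KLF6 are immediate early response genes. Their RNA was followed in H9 human embryonic stem cells that were set up to raise or lower the forebrain and eye regulator LHX2 (a LIM-homeodomain protein). The 10 genes were taken by symbol, and they were chosen with earlier results of these data known. They are read by 12 of the 47227 probes on the array, and all 10 passed the filter on dim probes, so they are 10 of 15650 genes tested. In the overexpression experiment LHX2 was placed under doxycycline control in H9 cells. Dox-plus cells received doxycycline for 3 days and dox-minus cells received none. Both were harvested at day 4, 1 day after the drug had ended, and at day 16, 13 days after its end. In the knockdown experiment H9 cells carried a short hairpin RNA against LHX2 (shLHX2) or one against luciferase (shLuc) and were harvested on day 12 of neural induction. There were 6 groups of 2 arrays, and the series calls all samples biological duplicates. The series text names GFP as the overexpression control, but the labels of these arrays give dox-minus LHX2 cells, so an effect of the drug and an effect of LHX2 cannot be told apart. No label says whether the lines were clones.

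Immediate early genes are transcribed within minutes of a growth factor, stress or other signal, without new protein being made first. Mitogen-activated protein (MAP) kinases reach their promoters through serum response factor with its ELK partners and through CREB and ATF proteins. FOS, FOSL1, JUN and JUNB encode subunits of the AP-1 transcription factor, in which a FOS and a JUN protein, or JUN proteins with each other, pair through leucine zippers. EGR1 and KLF6 encode zinc finger transcription factors. DUSP1 encodes a phosphatase that removes phosphate from MAP kinases and so closes a negative feedback loop. IER3 encodes a regulator of cell survival and IER2 a small nuclear protein. BTG2 encodes an antiproliferative protein, is a target of p53, and is known in the mouse as a marker of neural progenitors that divide to make neurons.

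Matches to some of these inputs were sought in promoter windows, the 250 bases before the start, which RefSeq (GRCh38.p14) gave for 8 of the 10 genes. These were FOS, JUN, JUNB, EGR1, BTG2, IER2, DUSP1 and KLF6. Sites farther from the start were not searched, so a window without a match does not show that the gene lacks the site. The windows printed below belong to the founding AP-1 pair, to EGR1, whose window held a CArG box, and to 2 of the genes that differed most at day 16. Each runs 5′ to 3′ along the strand of its gene and ends at the base before the start. Capitals mark every match, on either strand, to the CArG box bound by serum response factor, to the full cyclic AMP response element TGACGTCA, to its shorter form TGACG, or to TGACATCA, a variant searched for after the sequences had been read. FOS lies at chr14:75278578-75278827 on the plus strand, JUN at chr1:58784048-58784297 on the minus strand, EGR1 at chr5:138465229-138465478 on the plus strand, DUSP1 at chr5:172771196-172771445 on the minus strand and KLF6 at chr10:3785210-3785459 on the minus strand.
FOS: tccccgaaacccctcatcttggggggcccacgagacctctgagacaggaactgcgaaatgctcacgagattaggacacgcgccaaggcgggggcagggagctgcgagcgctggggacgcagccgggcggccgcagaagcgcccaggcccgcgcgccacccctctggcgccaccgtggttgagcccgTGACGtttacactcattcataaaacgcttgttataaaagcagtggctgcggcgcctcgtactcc
JUN: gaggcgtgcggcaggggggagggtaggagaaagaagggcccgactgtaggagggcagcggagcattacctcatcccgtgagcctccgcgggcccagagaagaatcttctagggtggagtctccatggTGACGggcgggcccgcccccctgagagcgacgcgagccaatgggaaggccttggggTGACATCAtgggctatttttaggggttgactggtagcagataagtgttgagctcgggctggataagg
EGR1: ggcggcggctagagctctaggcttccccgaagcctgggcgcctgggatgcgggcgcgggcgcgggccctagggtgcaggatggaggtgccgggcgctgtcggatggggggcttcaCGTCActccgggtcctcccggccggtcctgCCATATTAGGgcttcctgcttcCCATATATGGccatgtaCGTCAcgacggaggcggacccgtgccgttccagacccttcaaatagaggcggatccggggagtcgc
DUSP1: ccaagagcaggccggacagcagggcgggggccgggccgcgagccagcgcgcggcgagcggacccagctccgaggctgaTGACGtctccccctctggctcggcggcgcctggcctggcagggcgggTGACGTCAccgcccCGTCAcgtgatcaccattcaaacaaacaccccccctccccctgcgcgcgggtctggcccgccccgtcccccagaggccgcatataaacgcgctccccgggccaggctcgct
KLF6: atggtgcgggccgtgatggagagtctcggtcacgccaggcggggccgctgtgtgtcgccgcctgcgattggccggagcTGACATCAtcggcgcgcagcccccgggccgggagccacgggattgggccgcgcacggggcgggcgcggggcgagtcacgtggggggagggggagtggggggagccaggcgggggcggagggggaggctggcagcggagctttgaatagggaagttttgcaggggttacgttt

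EGR1 held the CArG box, at CCATATTAGG from 105 to 96 bases before the start and at CCATATATGG from 83 to 74 bases before it. The other 7 windows of 250 bases did not, which leaves sites farther from the start unread. Of 35116 RefSeq promoter windows of 250 bases, 1.16% held a CArG box. DUSP1 held TGACGTCA, which includes TGACG on both strands, from 125 to 118 bases before its start, as did 1.65% of all windows. The shorter TGACG, on either strand, was in 7 of the 8 promoters, all but that of KLF6, and in 21.22% of all windows. TGACATCA was found in JUN, from 67 to 60 bases before the start, and in KLF6, from 172 to 165 bases before it, and in 2.37% of all windows. None of the 8 windows held the AP-1 letters TGACTCA or TGAGTCA, which 4.2% of windows hold, or the EGR letters GCGTGGGCG, which 0.72% hold. These are matches of letters in the reference, and binding was not measured.

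Each array detected between 19050 and 20489 probes, and its median signal lay between 73.1 and 89.2. Pearson correlations within a group, across the 15650 genes tested, which are no independent replicates, ran from 0.976 to 0.994. Of the 10 genes, 9 were detected on all 12 arrays, and JUNB was detected on 4 of 12. A value of one of the member probes rests on 9 to 39 beads (median 22), and its bead standard error had a median, by gene, between 4.79% and 7.37% of the signal. Each group has 2 arrays, which limits the precision. All 8 pluripotency markers tested were detected on every day 4 array, as the H9 label asks. Below, a level is a normalized log2 signal, and a difference is its log2 fold change with the standard error (SE) from a limma fit over all 12 arrays, 2 against 2. Its p was adjusted by Benjamini-Hochberg over all 15650 genes, and a gene is called where that is under 0.05. LHX2, the targeted gene, was lower in shLHX2 than in shLuc cells by 2.03 ± 0.27 (log2 ± SE, limma adjusted p = 0.00592). At day 4 neither dox-minus array and 1 of 2 dox-plus arrays detected it, so its dox-plus level is only bounded, at least 1.05-fold higher (limma adjusted p = 0.272). At day 16 it differed by 0.86 ± 0.27 between dox-plus and dox-minus cells (limma adjusted p = 0.0581). The dox-minus controls themselves held much LHX2 by then, at 12.19 and 11.92, against 12.79 and 13.04 in dox-plus cells. Without the drug LHX2 was at least 83.5-fold higher at day 16 than at day 4 (limma adjusted p = 1.67e-08). Day 16 thus does not compare cells with and without LHX2 RNA. No source used here says whether the induced transcript includes the sequence this probe reads, so its signal does not check the dox labels.

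At day 16, long after the drug had ended, 7 of the 10 genes were lower in dox-plus cells than in the dox-minus controls: FOS, FOSL1, JUN, JUNB, IER3, DUSP1 and KLF6. BTG2 was higher, and EGR1 and IER2 did not pass the test. Over all 15650 genes limma called 13.7% at day 16 (adjusted p under 0.05), 7.64% lower and 6.08% higher. The median log2 fold change was -0.9997 over the 10 genes and 0.02 over all genes tested. The 2 dox-plus arrays lay below both dox-minus arrays for 8 genes and above them for BTG2, as they did for 26.6% and 27.2% of all genes. At day 4 none of the 10 was called, with 1.93% of all genes called and a median log2 fold change of -0.25 over the 10 against -0.01 over all genes. At an unadjusted p under 0.05, limma gave 3 of the 10 at that day, EGR1, BTG2 and IER3, and 13.9% of all genes. In the knockdown none was called, with 0.543% of all genes called and 2 of the 10, EGR1 and FOS, at an unadjusted p under 0.05 in limma, as were 10.2% of all genes.

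**Figure D1:**
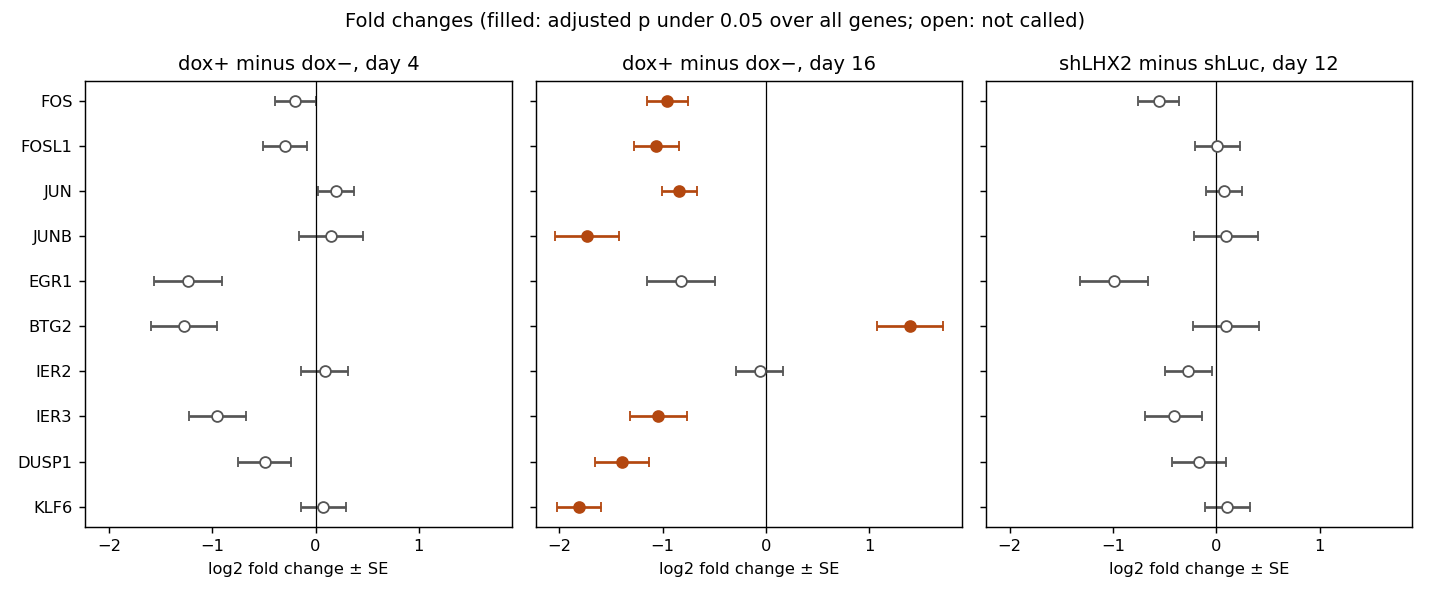
Log2 fold change of each gene (x axis, ± SE of the fit, 2 arrays against 2) for dox-plus minus dox-minus at day 4, the same at day 16, and shLHX2 minus shLuc. Filled points passed limma's adjusted p of 0.05 over all genes tested: 8 at day 16, 7 of them lower and BTG2 higher, and none in the other panels.

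Among the AP-1 genes, JUNB had the largest difference at day 16. Its normalized log2 signal was 7.40 and 6.79 on the dox-minus arrays and 4.85 and 5.86 on the dox-plus arrays. Both dox-minus arrays detected it, but of the dox-plus arrays only replicate 2 did. The difference was -1.73 ± 0.31 (log2 ± SE; limma adjusted p = 0.0031). In the other groups JUNB was near or under the detection limit, at 5.53 and 5.27 in dox-minus and 5.75 and 5.34 in dox-plus cells at day 4, with 0 and 1 of 2 arrays detected. In the knockdown experiment it was detected on no array, at 5.14 and 5.18 in shLuc and 5.13 and 5.37 in shLHX2 cells. Dox-minus cells at day 16 were the only group where both arrays measured JUNB, and the other 5 groups overlapped with their neighbours in level. JUNB therefore passed the filter on dim probes only through the group where it was high. Its differences from that group are not independent of the filter.

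FOS, the partner that gives AP-1 its stable dimers, was also highest in dox-minus cells at day 16. Its arrays there read 8.53 and 8.13, against 7.35 and 7.40 in dox-plus cells, a difference of -0.96 ± 0.20 (limma adjusted p = 0.0074). At day 4 it read 7.83 and 7.82 in dox-minus and 7.74 and 7.52 in dox-plus cells, and the difference of -0.20 ± 0.20 was no larger than its SE (limma adjusted p = 0.733). In the order of group means no FOS group overlapped the next, from dox-minus day 16 down to shLHX2. The shLuc arrays read 7.28 and 7.05 and the shLHX2 arrays 6.50 and 6.72, and this knockdown difference of -0.56 ± 0.20 missed the threshold (limma adjusted p = 0.331; 95% interval -0.99 to -0.12). The day 16 call of FOS was lost without dox-minus day 16 replicate 1 (limma adjusted p = 0.0691) and without dox-plus day 16 replicate 1 (limma adjusted p = 0.0639).

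JUN, whose protein can pair with itself, with the other JUN proteins and with every FOS protein, kept a level near 10 at day 4 and in dox-minus cells at day 16. It read 10.31 and 10.11 in dox-minus and 10.41 and 10.40 in dox-plus cells at day 4, and 10.16 and 10.02 in dox-minus cells at day 16. The dox-plus day 16 arrays, at 9.28 and 9.22, lay below all of these, next to the shLHX2 arrays at 9.26 and 9.12 and the shLuc arrays at 9.19 and 9.05. The day 16 difference was -0.84 ± 0.17 (limma adjusted p = 0.0075), that of day 4 was 0.20 ± 0.17 (limma adjusted p = 0.689) and that of the knockdown 0.07 ± 0.17 (limma adjusted p = 0.941). JUN had the smallest spread within groups of the 7 lower genes, a pooled SD of 0.09, yet its day 16 call moved just past the threshold without dox-minus replicate 1 (limma adjusted p = 0.0533), dox-plus replicate 1 (limma adjusted p = 0.0503) or dox-plus replicate 2 (limma adjusted p = 0.0548).

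FOSL1, which encodes the FOS-related protein FRA-1, was highest at day 4. It stood there at 8.38 and 8.34 in dox-minus and 8.39 and 7.74 in dox-plus cells, and those groups overlapped (difference -0.30 ± 0.21, limma adjusted p = 0.6). At day 16 it read 7.02 and 6.96 in dox-minus and 5.86 and 6.002 in dox-plus cells, the lowest of the 6 groups. The day 16 difference was -1.06 ± 0.21 (limma adjusted p = 0.0063). FOSL1 was 2.58-fold lower at day 16 than at day 4 without the drug and 4.39-fold lower with it (limma adjusted p = 0.000821 and 1.68e-05). The knockdown groups, at 6.88 and 6.76 against 6.87 and 6.75, differed by 0.01 ± 0.21 (limma adjusted p = 0.993). Without dox-plus day 16 replicate 1 the day 16 call of FOSL1 was lost (limma adjusted p = 0.0654).

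**Figure D2:**
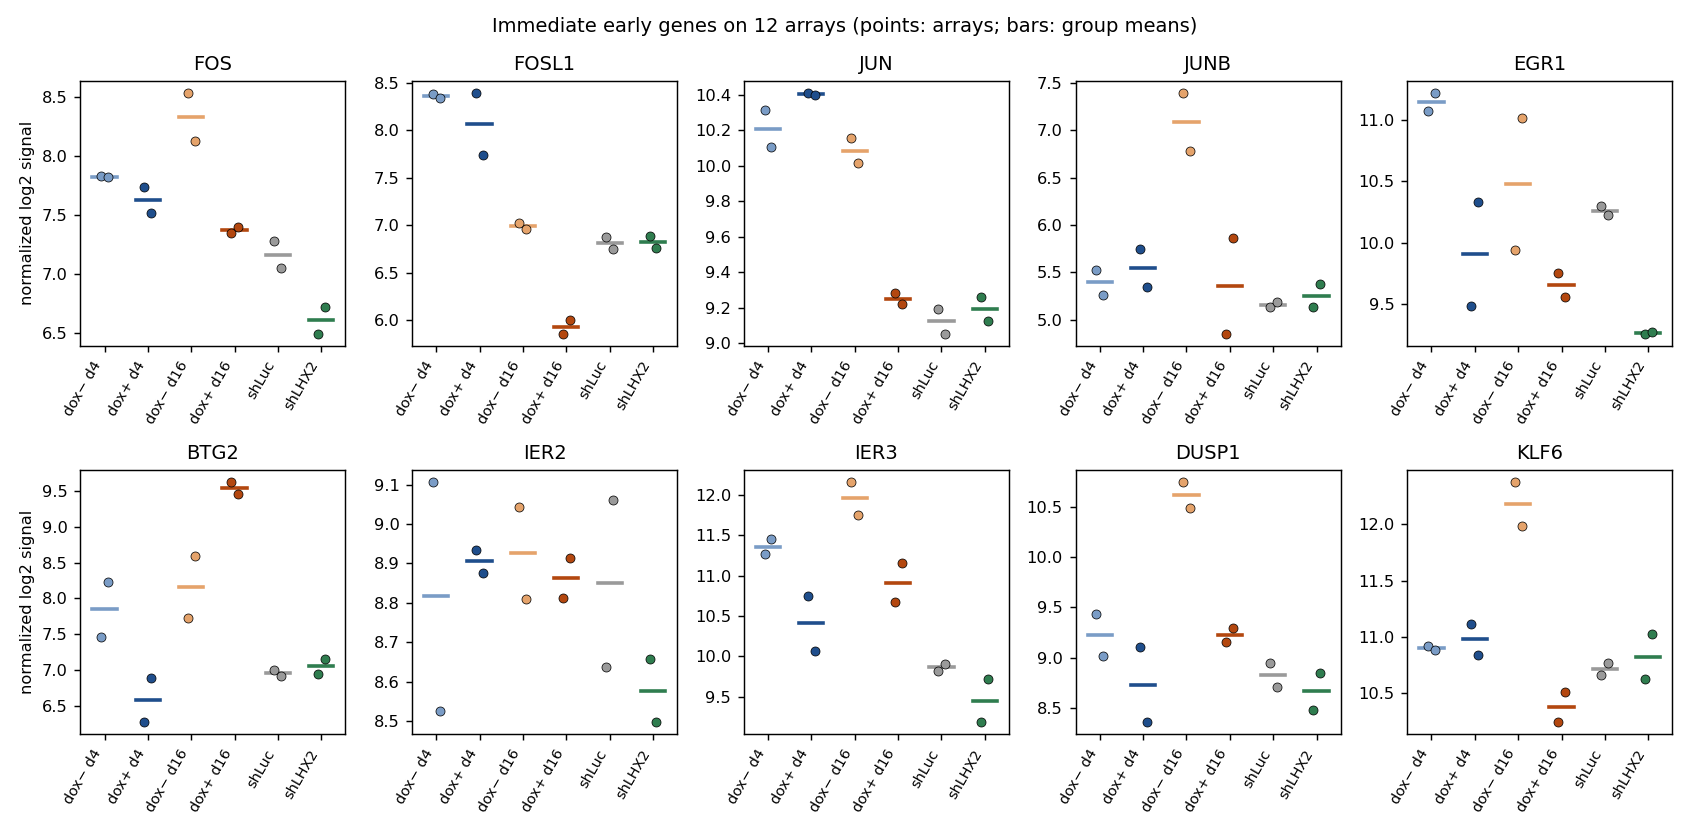
Normalized log2 signal (y axis, a scale of its own in each panel) of the 10 genes by group on the x axis, with a point per array and a bar at the group mean. The dox-minus day 16 arrays are the highest for FOS, JUNB, IER3, DUSP1 and KLF6, while both dox-plus day 16 arrays are the highest for BTG2, at 9.64 and 9.46.

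KLF6, a zinc finger factor of the Kruppel-like family, had the smallest adjusted p of the 10 at day 16. The dox-minus arrays read 12.38 and 11.99 and the dox-plus arrays 10.24 and 10.51, which made KLF6 3.50-fold lower in dox-plus cells (log2 -1.81 ± 0.21, limma adjusted p = 0.000179). The call held with any single array left out. The other 4 groups lay between these, at 10.92 and 10.88 in dox-minus and 11.11 and 10.84 in dox-plus cells at day 4, 10.77 and 10.67 in shLuc and 10.62 and 11.02 in shLHX2 cells. At day 4 the difference was 0.08 ± 0.21 (limma adjusted p = 0.926), and in the knockdown it was 0.11 ± 0.21 (limma adjusted p = 0.919). KLF6 is the gene with several probes. The probe used here, ILMN_1735014, and a further one designed on another transcript of the gene, ILMN_1737406, were detected on all 12 arrays and gave day 16 differences of -1.81 and -1.94, whereas ILMN_1700727 was detected on no array.

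EGR1, the zinc finger gene whose promoter holds the CArG boxes shown above, was lower in the dox-plus or shLHX2 group in all 3 comparisons but passed the test in none. At day 4 it read 11.07 and 11.22 in dox-minus and 9.48 and 10.33 in dox-plus cells, a difference of -1.24 ± 0.33 (limma adjusted p = 0.0854; 95% interval -1.95 to -0.52). At day 16 the dox-minus arrays stood far apart, at 9.94 and 11.02, above the dox-plus arrays at 9.75 and 9.56. That difference of -0.82 ± 0.33 had a limma adjusted p of 0.12. It rests on which dox-minus array is kept: it was -1.36 (limma adjusted p = 0.0156) without dox-minus replicate 1 and -0.29 (limma adjusted p = 0.52) without dox-minus replicate 2. In the knockdown the shLuc arrays read 10.30 and 10.22 and the shLHX2 arrays 9.26 and 9.28. Within each group the arrays were close together, and both shLHX2 arrays lay below both shLuc arrays, as they did for 22.6% of all genes. The difference of -0.99 ± 0.33 had a limma adjusted p of 0.276 with the spread shared over 6 groups, 0.0373 with the spread of the 4 knockdown arrays alone, and 0.0358 with array weights. With any 1 of those 4 arrays left out the gene was not called (limma adjusted p up to 0.956).

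DUSP1, the MAP kinase phosphatase, was 2.63-fold lower in dox-plus cells at day 16 (log2 -1.39 ± 0.26, limma adjusted p = 0.0039). Its arrays read 10.75 and 10.49 in dox-minus and 9.15 and 9.30 in dox-plus cells, and the call held with any single array left out. The dox-plus day 16 arrays lay within the range of dox-minus cells at day 4, where the arrays read 9.43 and 9.02. The remaining groups were lower or overlapped with it: 9.10 and 8.36 in dox-plus cells at day 4, 8.94 and 8.71 in shLuc and 8.48 and 8.85 in shLHX2 cells. Differences at day 4 (-0.49 ± 0.26, limma adjusted p = 0.438) and in the knockdown (-0.16 ± 0.26, limma adjusted p = 0.895) did not pass the test.

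IER3, the survival regulator, read 12.16 and 11.75 in dox-minus and 10.68 and 11.15 in dox-plus cells at day 16. The difference of -1.04 ± 0.28 passed the test (limma adjusted p = 0.0265) and was lost without dox-minus replicate 1 (limma adjusted p = 0.16) or dox-plus replicate 1 (limma adjusted p = 0.231). At day 4 IER3 had nearly the same difference, -0.95 ± 0.28, from 11.27 and 11.45 in dox-minus to 10.75 and 10.07 in dox-plus cells, without passing the test (limma adjusted p = 0.117). The knockdown arrays were the lowest of all, at 9.82 and 9.90 in shLuc and 9.18 and 9.72 in shLHX2 cells (difference -0.41 ± 0.28, limma adjusted p = 0.683). IER2, in contrast, ranged over only 0.35 between its highest and lowest group mean, and every group overlapped the next in level. Its arrays lay between 8.50 and 9.11, and its difference at day 16 was -0.06 ± 0.23 (limma adjusted p = 0.885), with a 95% interval from -0.56 to 0.43. Differences of up to 0.56 in size therefore remain possible for IER2.

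BTG2, the antiproliferative p53 target, went the other way from the 7 genes at day 16. It read 9.64 and 9.46 in dox-plus and 7.72 and 8.59 in dox-minus cells, so that it was 2.62-fold higher in dox-plus cells (log2 1.39 ± 0.32, limma adjusted p = 0.0132). At day 4 the order was the opposite, with 6.26 and 6.89 in dox-plus and 7.47 and 8.23 in dox-minus cells, but that difference of -1.27 ± 0.32 missed the threshold (limma adjusted p = 0.0691). The shLuc arrays (7.002 and 6.91) and the shLHX2 arrays (6.95 and 7.16) overlapped, with a difference of 0.10 ± 0.32 (limma adjusted p = 0.958). The day 16 call was lost without dox-minus replicate 1, the lower of its 2 arrays (difference 0.96, limma adjusted p = 0.109), and without dox-plus replicate 1 (difference 1.30, limma adjusted p = 0.1).

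The change between day 4 and day 16 was read within each arm. Without the drug, 4 of the 10 genes were called, with 18% of all genes called (9.7% higher and 8.35% lower). JUNB was at least 2.67-fold higher at day 16, a bound set against the detection limit because neither day 4 array detected it. JUNB, DUSP1 (1.39 ± 0.26) and KLF6 (1.28 ± 0.21) rose, and FOSL1 fell. The limma adjusted p was 0.0025, 0.0029 and 0.0013 for the risers. FOS (0.50 ± 0.20, limma adjusted p = 0.104) and IER3 (0.60 ± 0.28, limma adjusted p = 0.166) had higher, non-overlapping arrays without passing the test. So many as 24.9% of all genes had higher, non-overlapping arrays in this comparison. EGR1 differed by -0.67 ± 0.33 (limma adjusted p = 0.197), by -1.20 (limma adjusted p = 0.0169) without dox-minus day 16 replicate 2, and by -0.13 (limma adjusted p = 0.835) without replicate 1 of that group.

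With the drug, 4 genes were called as well, with 36.6% of all genes called (17.8% higher and 18.9% lower): BTG2 rose by 2.97 ± 0.32 (limma adjusted p = 2.78e-05), and FOSL1, JUN and KLF6 fell. JUN fell by 1.16 ± 0.17 (limma adjusted p = 0.000347) and KLF6 fell by 0.60 ± 0.21 (limma adjusted p = 0.044). The KLF6 call was lost without dox-plus day 16 replicate 1 (difference -0.47, limma adjusted p = 0.246), day 16 replicate 2 (limma adjusted p = 0.0638) or day 4 replicate 1 (difference -0.47, limma adjusted p = 0.215). DUSP1 differed by 0.49 ± 0.26 (limma adjusted p = 0.159), by 0.87 (limma adjusted p = 0.0338) without dox-plus day 4 replicate 1, and by 0.12 (limma adjusted p = 0.748) without replicate 2 of that group. JUNB, with 1 of 2 arrays detected at each day, differed by -0.19 ± 0.31 (limma adjusted p = 0.662).

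The dox effect at day 16 minus that at day 4, which equals the time effect with the drug minus that without it, was called for 4 of the 10 genes, 3 of them negative. It was called for 7.85% of all genes (3.17% positive and 4.68% negative). It was -1.88 ± 0.30 for KLF6 (limma adjusted p = 0.0027), -1.88 ± 0.44 for JUNB (limma adjusted p = 0.0227), -1.03 ± 0.25 for JUN (limma adjusted p = 0.0248) and 2.67 ± 0.45 for BTG2 (limma adjusted p = 0.0039). The JUNB value rests partly on dox-minus day 4 arrays that did not detect it. For DUSP1 (-0.90 ± 0.37, limma adjusted p = 0.17), FOS (-0.76 ± 0.28, limma adjusted p = 0.13) and FOSL1 (-0.77 ± 0.30, limma adjusted p = 0.157) a difference between the days was not shown. IER3, at -0.09 ± 0.39 (limma adjusted p = 0.912), and EGR1, at 0.41 ± 0.46 (limma adjusted p = 0.633), had dox differences of like sign on both days. With 1 array left out at a time the KLF6 and BTG2 calls held in all 8 fits. The JUN call was lost without dox-minus day 16 replicate 1 (limma adjusted p = 0.0749), dox-minus day 4 replicate 2 (0.0976), dox-plus day 16 replicate 1 (0.0805) or 2 (0.0814), or dox-plus day 4 replicate 1 (0.0622). The JUNB call was lost without dox-minus day 16 replicate 1 (limma adjusted p = 0.0716), dox-minus day 4 replicate 1 (0.0563) or 2 (0.0915), dox-plus day 16 replicate 1 (0.0858) or dox-plus day 4 replicate 1 (0.0769). Calls were gained by FOS without dox-minus day 16 replicate 2 (limma adjusted p = 0.0491), and by DUSP1 (0.0396) and FOSL1 (0.0299) without dox-plus day 4 replicate 2.

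**Figure D3:**
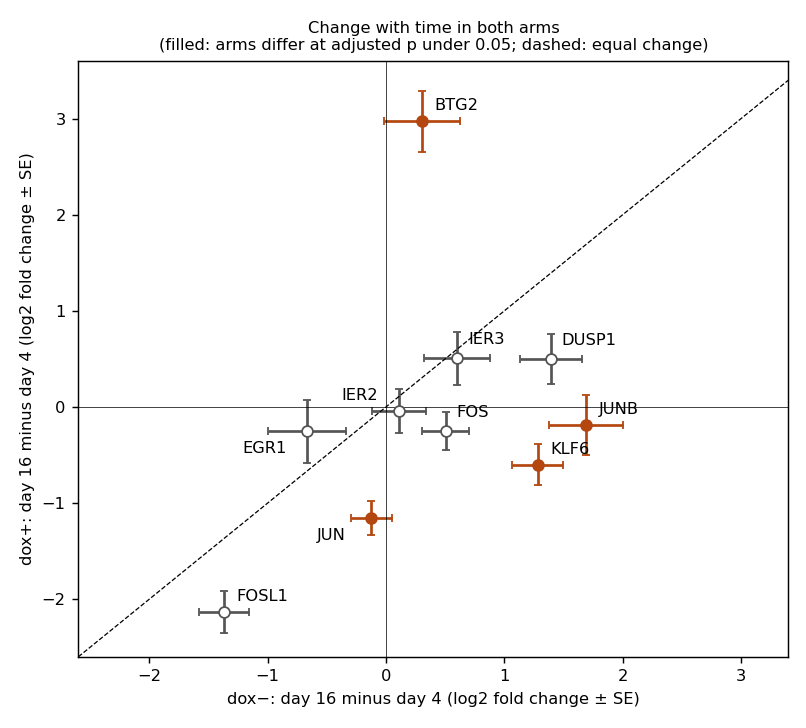
Change from day 4 to day 16 (log2 fold change ± SE) without the drug on the x axis and with it on the y axis, a point per gene. Filled points, JUN, JUNB, KLF6 and BTG2, differ between the arms at a limma adjusted p under 0.05, and BTG2 lies farthest above the line of equal change.

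Related genes of the same programme were read from lists of other immediate early genes, regulators and targets. These lists, too, were chosen with earlier results of these data known, so their counts describe the lists and are no independent support. Of 9 tested genes of the AP-1 family and its bZIP relatives, 5 were lower and none higher in dox-plus cells at day 16. The stress-inducible ATF3 was lower by 1.09 ± 0.22 (limma adjusted p = 0.0072), at 9.78 and 9.69 in dox-plus and 10.67 and 10.97 in dox-minus cells. JDP2, a repressor that pairs with JUN proteins, was lower by 1.21 ± 0.25 (limma adjusted p = 0.008). BATF3, detected on neither dox-plus array, was at least 1.52-fold lower (limma adjusted p = 0.0084). Of 11 other immediate early transcription regulators 6 were lower and none higher. BHLHE40, a basic helix-loop-helix repressor, had the largest difference and was lower by 2.14 ± 0.24 (limma adjusted p = 0.000106). It read 8.69 and 8.73 in dox-plus and 10.72 and 10.98 in dox-minus cells. CSRNP1, an AXIN1-inducible nuclear protein, was lower by 1.83 ± 0.18 (limma adjusted p = 4.78e-05), and CEBPD was lower by 1.58 ± 0.29 (limma adjusted p = 0.0032). EGR3, EGR4, NR4A1, NR4A2, NR4A3 and SNAI1 of this list, and ATF7, BATF, BATF2 and MAFK of the AP-1 list, did not pass the filter on dim probes.

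Among 24 other immediate early effectors 8 were lower and 1 higher at day 16. GADD45B, a stress sensor, was lower in dox-plus cells by 1.37 ± 0.25 (limma adjusted p = 0.0031). The growth factor gene HBEGF was lower by 1.29 ± 0.19 (limma adjusted p = 0.000828) and the phosphatase regulator PPP1R15A by 1.15 ± 0.26 (limma adjusted p = 0.0113). PTGS2, the inducible cyclooxygenase, was the higher one, at 7.73 and 7.50 against 7.04 and 6.75 (0.72 ± 0.19, limma adjusted p = 0.0256). Of 8 other dual-specificity phosphatases 2 were lower. DUSP10, which acts on the stress kinases JNK and p38, was lower by 1.76 ± 0.24 (limma adjusted p = 0.000462) and DUSP5 by 1.09 ± 0.25 (limma adjusted p = 0.0138). PLK3, DUSP7, DUSP9 and, from the BTG and TOB list, BTG4 did not pass the filter.

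The remaining lists hold upstream genes, corepressors, relatives of BTG2 and p53 targets, and stand beside 13.7% of all genes called at day 16. Of 18 MAP kinase pathway, SRF, ELK and CREB genes 1 was called at day 16, the ternary complex factor gene ELK3, at least 1.63-fold lower (limma adjusted p = 0.0266). None of the 2 EGR corepressors was called, with NAB1 at 0.54 ± 0.27 (limma adjusted p = 0.214). Neither was any of the 4 other BTG and TOB genes, the relatives of BTG2, of which BTG3 had the largest difference, -0.49 ± 0.21 (limma adjusted p = 0.156). Of 15 other p53 targets, the class BTG2 belongs to, 2 were called at day 16, both lower, while 9 had positive and 6 negative differences. The stress-inducible SESN2 fell by 1.29 ± 0.22 (limma adjusted p = 0.0021) and the cell cycle inhibitor CDKN1A fell by 1.07 ± 0.19 (limma adjusted p = 0.0031). Median log2 fold changes at day 16 were -0.79 for the AP-1 relatives, -0.93 for the transcription regulators, -0.30 for the effectors, -0.08 for the phosphatases, 0.08 for the BTG and TOB genes, -0.18 for the upstream genes, 0.09 for the corepressors and 0.06 for the p53 targets, against 0.02 over all genes.

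**Figure D4:**
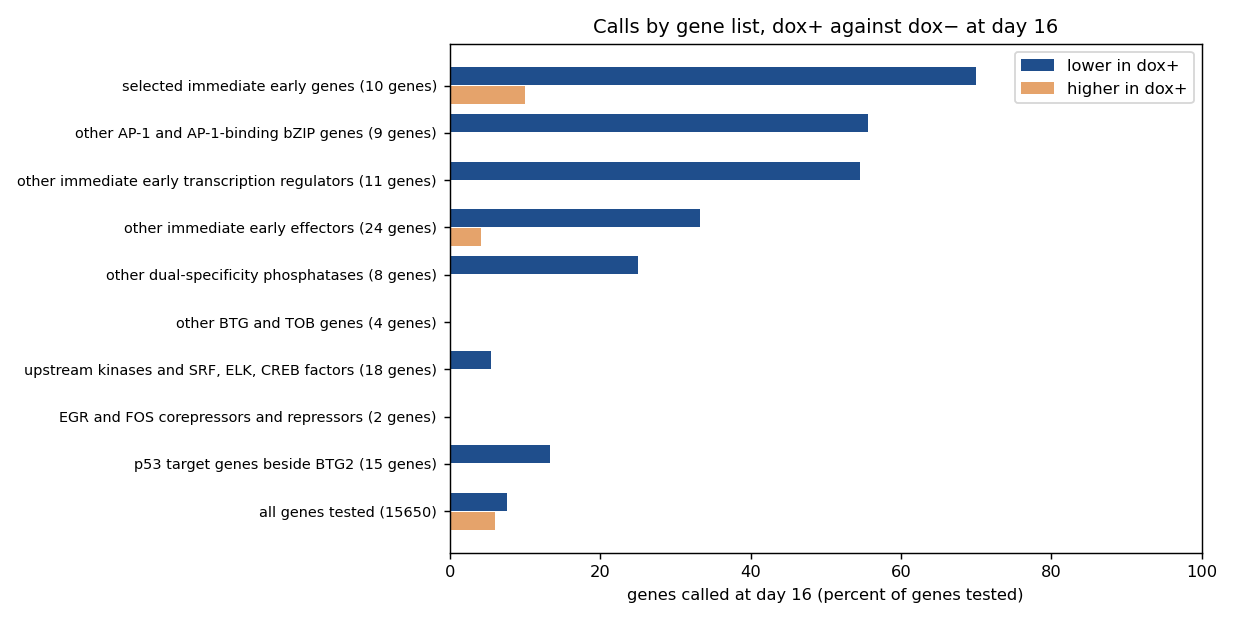
Share of each list's tested genes (x axis, percent) that limma called lower (blue) or higher (orange) in dox-plus cells at day 16, with the number of genes tested in brackets and all 15650 genes at the bottom. Lower calls reach 7 of 10 selected genes, 5 of 9 AP-1 relatives and 6 of 11 other transcription regulators, against 7.64% of all genes. The genes and lists were chosen with earlier results of these data known, so the contrast with all genes is descriptive.

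At day 4, with 1.93% of all genes called, the 1 called gene of these lists was ZMAT3, among 15 p53 targets. It encodes an RNA-binding zinc finger protein and was higher in dox-plus cells by 1.48 ± 0.34 (limma adjusted p = 0.0488). The largest difference among the AP-1 relatives at that day was that of MAFF, 1.20 ± 0.32 (limma adjusted p = 0.0856), and among the transcription regulators that of NPAS4, -0.996 ± 0.25 (limma adjusted p = 0.0668). In the knockdown, with 0.543% of all genes called, the 1 called gene was DUSP6, among 8 phosphatases. DUSP6 encodes the phosphatase of ERK and is a feedback target of FGF signalling. It read 9.59 and 9.40 in shLuc and 8.44 and 7.998 in shLHX2 cells, lower by 1.28 ± 0.21 (limma adjusted p = 0.0173).

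With time and without the drug (9.7% of all genes higher, 8.35% lower), 3 of the 9 AP-1 relatives rose and none fell: ATF3 (1.10 ± 0.22), FOSB (0.94 ± 0.28) and JUND (0.55 ± 0.17), with limma adjusted p = 0.0049, 0.0355 and 0.0436. Of the 11 transcription regulators 3 rose and none fell: CEBPD (2.58 ± 0.29, limma adjusted p = 6.06e-05), CSRNP1 (1.63 ± 0.18, limma adjusted p = 7.04e-05) and BHLHE40 (1.13 ± 0.24, limma adjusted p = 0.0057). Of the 24 effectors 8 rose, IER5L among them (2.52 ± 0.32, limma adjusted p = 0.000156), and 3 fell: SGK1 fell by 1.04 ± 0.21 (limma adjusted p = 0.0048), PHLDA1 fell by 1.06 ± 0.26 (limma adjusted p = 0.0145) and ARC was at least 1.09-fold lower (limma adjusted p = 0.0155). Of the phosphatases DUSP10 rose (1.32 ± 0.24, limma adjusted p = 0.002) and DUSP5 fell by 0.92 ± 0.25 (limma adjusted p = 0.0245). BTG1 and BTG3 rose of 4 BTG and TOB genes, RPS6KA5, which encodes a kinase downstream of MAP kinases, rose of 18 upstream genes, and of 15 p53 targets CDKN1A rose (1.53 ± 0.19, limma adjusted p = 0.000168) while TP53I3 and FDXR fell. In that comparison and in the day 16 one the same dox-minus day 16 arrays are used, so the rise and the later difference are not independent of each other.

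With time and with the drug (17.8% of all genes higher, 18.9% lower), 1 AP-1 relative rose, JUND, and 5 of 9 fell, among them MAFF, which fell by 1.498 ± 0.32 (limma adjusted p = 0.0035). Of the transcription regulators CEBPD rose (0.81 ± 0.29, limma adjusted p = 0.0428), CEBPB fell, and BHLHE40 fell by 1.31 ± 0.24 (limma adjusted p = 0.0012). Of the effectors 4 rose, IER5L again among them (2.40 ± 0.32, limma adjusted p = 0.000125), and 6 fell, among them PHLDA1, which fell by 1.74 ± 0.26 (limma adjusted p = 0.00034). The phosphatases DUSP4 and DUSP6 rose, and DUSP5 fell by 2.02 ± 0.25 (limma adjusted p = 8.62e-05). Of the BTG and TOB genes 3 of 4 rose, TOB1 (1.16 ± 0.23, limma adjusted p = 0.0022), BTG1 (1.04 ± 0.22, limma adjusted p = 0.0032) and BTG3 (0.72 ± 0.21, limma adjusted p = 0.0207). Of the upstream genes MRTFB and RPS6KA5 rose, the corepressor gene NAB1 rose (1.08 ± 0.27, limma adjusted p = 0.0089), and of the p53 targets 3 rose (TP53INP1, CDKN1A and SESN1) and 3 fell (TP53I3, ZMAT3 and SESN2).

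The difference of the dox effects was called in these lists only with a negative sign, beside 3.17% of all genes called positive and 4.68% negative. It was called for 4 of 11 transcription regulators, among them BHLHE40 (-2.44 ± 0.34, limma adjusted p = 0.001), CSRNP1 (-2.05 ± 0.26, limma adjusted p = 0.000575) and CEBPD (-1.77 ± 0.40, limma adjusted p = 0.0204). It was called for 1 of 8 phosphatases, DUSP10 (-1.90 ± 0.33, limma adjusted p = 0.0045), and for 1 of 9 AP-1 relatives, MAFG (-1.22 ± 0.31, limma adjusted p = 0.0348). The 2 effectors of 24 were PPP1R15A (-1.42 ± 0.36, limma adjusted p = 0.0337) and GADD45B (-1.35 ± 0.35, limma adjusted p = 0.0354), and the 1 p53 target of 15 was SESN2 (-1.40 ± 0.31, limma adjusted p = 0.0164).

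The cell type markers changed along with the genes at day 16. Of 10 mesenchyme and fibroblast markers 9 were lower in dox-plus cells, with log2 fold changes of -4.28 for COL6A3, -4.00 for COL3A1 and -3.98 for PDGFRA. Their summed normalized signal lay between 23842 and 25660 on the dox-minus arrays and between 6263 and 6645 on the dox-plus arrays, with 10 and 9 of the 10 detected. In dox-minus cells at day 4 it lay between 7208 and 7441, with 5 to 6 of the 10 detected. Sums of like size can hide opposite changes of single markers. From day 4 to day 16 in dox-plus cells 6 of the 10 were called higher, with LUM, COL3A1 and DCN the largest. In that comparison 3 were called lower, TWIST1, THY1 and COL1A1, beside 17.8% of all genes called higher and 18.9% lower. Of 9 tested neural progenitor markers 6 were higher, led by FABP7, HES5 and DACH1. The sums of the 9 ran from 16166 to 17703 in dox-minus and from 45817 to 45972 in dox-plus cells. LHX2, the targeted gene, is among the 9, and SOX1 did not pass the filter. Of 4 tested endothelial markers 3 were lower, TEK, ESAM and KDR, while the defining PECAM1 and CDH5, with TIE1 and EMCN, did not pass the filter (sums 1105 to 1270 against 612 to 656). Of 8 pluripotency markers 2 were called lower, NANOG and POU5F1, and none higher. In sign, 5 differences were positive and 3 negative, with a median of 0.21 (sums 21407 to 25354 in dox-minus and 26362 to 28925 in dox-plus cells). Of 7 neuron markers 3 were higher and 2 lower (sums 3319 to 4582 against 2847 to 3327). In RNA from whole cultures, fewer cells of a type and less RNA per cell cannot be told apart. The part of these markers in the day 16 values of the 10 genes was not tested.

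At day 4, where none of the 10 was called, the mesenchyme sums overlapped, at 7208 to 7441 in dox-minus and 6583 to 9319 in dox-plus cells, as did the neural progenitor sums, at 6359 to 7515 and 7070 to 9511. In the knockdown the neural progenitor sums were 11615 to 13533 in shLuc and 8671 to 9090 in shLHX2 cells. The 2 of 9 markers called lower were PAX6 (-1.57 ± 0.22, limma adjusted p = 0.0079) and LHX2, the target of the hairpin. LHX2 counts in these sums, so they are not independent of the knockdown. The mesenchyme sums were 4847 to 5116 in shLuc and 4471 to 4734 in shLHX2 cells, with 1 of 10 markers higher. Of the endothelial markers, TEK was called lower in both comparisons. At day 4, of 4 tested, VWF was higher (1.81 ± 0.28, limma adjusted p = 0.0096) and TEK lower (-0.94 ± 0.19, limma adjusted p = 0.033), with sums of 815 to 841 in dox-minus and 566 to 738 in dox-plus cells. In the knockdown 1 of 4 tested was called, TEK, which was lower (-2.12 ± 0.19, limma adjusted p = 0.000583). The sums were 888 to 1063 in shLuc and 360 to 442 in shLHX2 cells. The part of these markers in the values of the 10 genes was not tested. The median log2 fold change of the 10 in the knockdown was -0.08, against 0.01 over all genes.

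The genes with the nearest pattern to each of the 10 were found by the root mean square difference of centred log2 values over the 12 arrays. KLF6 had CSRNP1 at 0.14 and KRT18P13, a pseudogene copy of KRT18 whose probe is uncertain for that reason, at 0.15, where the SD of KLF6 over the arrays was 0.61. DUSP1 had CHMP3 at 0.16 and ST3GAL5 at 0.22, FOSL1 had the adrenomedullin gene ADM at 0.17 and ADAP1 at 0.24, and JUN had NMRK1 at 0.18 and SYNM at 0.19. For FOS the nearest were TMEM187 and the co-chaperone gene BAG3, both at 0.22, for JUNB CST6 at 0.22 and WNT10A at 0.23, and for IER3 GBP2 at 0.23 and the natriuretic peptide gene NPPB at 0.29. EGR1 had MATN3 at 0.29 and REPS2 at 0.37. In log2 units BTG2 had the most distant neighbours of the 10, ZNF397 and LOC388312 at 0.40 and 0.41. It also had the largest SD over the arrays of the 10, 1.07, and such differences tend to grow with the SD. IER2, with an SD of 0.21, had GLG1 at 0.13 and MBTPS1 at 0.14, which is little below its own spread.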

How the data were processed

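Total RNA of 12 H9 cultures was measured on 12 Illumina bead arrays, in 6 groups of 2 taken from the sample labels. Per the file headers, each deposited file gives the mean bead intensity of a probe, its bead standard error, the count of beads and a detection p-value. The array medians differ, so the deposited intensity values had not been normalized between arrays. Scanner software and background steps are not given in the sources used here, and no genome build is named.

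Probe names were updated by Entrez identifier, which 35670 probes matched, 8287 did not and 3270 lacked. Intensities were corrected and quantile normalized with neqc of limma 3.58.1 in R 4.3.3 (offset 16) and put on the log2 scale. Probes with a detection p under 0.01 on both arrays of a group were kept (21526, of which 807 had no gene), and the brightest kept probe stood for its gene. A single limma fit held the 6 group means (6 residual degrees of freedom, prior 5.93). Tests were adjusted by Benjamini-Hochberg over 15650 genes and called at an adjusted p under 0.05. "At least N-fold" sets the brighter group against the detection limit where neither array of the other detected a gene. Motifs were counted with Python 3.11.15.

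On simulated data the fit recovered 59% of genes changed by 1 on the log2 scale and 100% of those changed by 2 at day 16. Between the days' dox effects it recovered 10% and 90%. In both, 200 of 15650 genes were changed. Replicate numbers were not used as pairs: between arrays with the same number, deviations from the group means correlated over genes at 0.33 (day 4), -0.58 (day 16) and 0.07 (knockdown). The deposited series values hold the 2 shLuc arrays under each other's label. The replicate numbers of shLuc are therefore uncertain, while group membership is not affected. The text names the 10 genes, LHX2, up to 3 called genes in each direction from every list (the largest change where none was called) and the 2 nearest patterns of each of the 10. The lists cover AP-1 relatives, other immediate early regulators and effectors, phosphatases, BTG and TOB genes, upstream factors, corepressors, p53 targets and markers of 5 cell types. GADD45A is in the effector and p53 lists. The 10 genes and all lists were chosen with earlier results of these data known. Alternatives covered background, offset, normalization, filter, probe rule, weights, samples in the fit, the replicate block and leaving out arrays.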

Additional observations from a re-analysis of the deposited data

Results flagged for a closer look

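The dox effect differed between day 16 and day 4 by limma's test of that difference for 4 of the 10 genes. The difference was -1.03 ± 0.25 for JUN, -1.88 ± 0.44 for JUNB, 2.67 ± 0.45 for BTG2 and -1.88 ± 0.30 for KLF6 (log2, day 16 minus day 4, ± SE), with limma adjusted p = 0.0248, 0.0227, 0.0039 and 0.0027. For BTG2 the dox-plus arrays lay below the dox-minus arrays at day 4 and above them at day 16. For JUN they lay above at day 4 and below at day 16. Of all genes, 20.5% lay above and 19.8% below at day 4, and 27.2% and 26.6% at day 16. Neither day 4 difference was called, and that of JUN was only 0.20 ± 0.17 (limma adjusted p = 0.689), so a reversal of sign was not shown. The JUNB value rests partly on arrays that did not detect it, and the JUN and JUNB calls were each lost in 5 of the 8 fits without 1 array.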

How the results depend on the processing

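Over the 60 member values, 20 of them called, 940 alternative values were computed: 856 kept their direction and side of the threshold, 38 called ones missed it, 8 passed it newly, and 38 changed sign, none of which had been called. The day 16 count of 8 called genes was 5 (1 higher, 4 lower; FOS, JUN and IER3 missed it) with the spread of the compared arrays alone, and ran from 3 to 8 with 1 array left out, at 5 without dox-minus day 16 replicate 1 and 3 without dox-plus day 16 replicate 1. At day 16, IER3 also missed the threshold without the filter on dim probes (limma adjusted p = 0.0582), as did FOSL1 on the unnormalized series values (limma adjusted p = 0.0805). The knockdown count of 0 became 1, EGR1, with array weights and 1 with the compared arrays alone. It was 0 with any array left out, as at day 4. The difference of the dox effects, 4 genes, was called for 2 with the compared arrays alone and for 2 to 6 with 1 array left out. There JUN missed it with array weights (limma adjusted p = 0.0545) and JUNB without the filter (limma adjusted p = 0.0618). The time counts ran from 4 to 5 without the drug and from 3 to 4 with it. The cause of these shifts was not tested. With an array left out, the lone array of its group is assumed to vary like the others. Slide as a block was not run, since the files name no slides.

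With the replicate block, the counts were 0 at day 4, 8 at day 16, 0 in the knockdown, 4 and 3 for time without and with the drug, and 4 for the dox effect at day 16 minus that at day 4. KLF6 with time and the drug was the only call lost (limma adjusted p = 0.0558). That call was also missed, at limma adjusted p from 0.0531 to 0.0912, with cyclic loess, the mean of all probes, no filter, array weights and the compared arrays alone.

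Of the uncalled values that changed sign, IER2 with time and the drug was 0.021 with cyclic loess. With median scaling FOS at day 4 was 0.027, and in the knockdown FOSL1 was -0.14, JUN -0.11, BTG2 -0.062 and KLF6 -0.037. On the unnormalized series values FOS and FOSL1 at day 4 were 0.14 and 0.050, and in the knockdown FOSL1 was -0.17, JUN -0.18, JUNB -0.028, BTG2 -0.12 and KLF6 -0.11. These 2 scalings moved the median of all genes by 0.15 and 0.23 at day 4, by -0.13 and -0.18 in the knockdown, by -0.12 and -0.15 for time with the drug, and by -0.15 and -0.23 for the difference, so signs of small values are relative to those shifts. The share of higher calls went from 69.2% to 87.1% and 93.7% at day 4, from 45.9% to 28.6% and 16.3% in the knockdown, from 53.8% to 62.0% and 70.4% for time without the drug, from 48.5% to 38.9% and 32.1% with it, and from 40.4% to 28.3% and 17.0% for the difference.

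With 1 array left out, values that changed sign ranged at day 4 from -0.62 to 0.029 for FOSL1, -0.054 to 0.35 for JUNB, -0.20 to 0.38 for IER2 and -0.058 to 0.21 for KLF6, and at day 16 from -0.18 to 0.055 for IER2. In the knockdown they ranged from -0.049 to 0.070 for FOSL1, -0.027 to 0.21 for JUNB, -0.0092 to 0.20 for BTG2, -0.35 to 0.018 for DUSP1 and -0.092 to 0.31 for KLF6. For time without the drug they ranged from -0.13 to 0.74 for BTG2 and -0.18 to 0.40 for IER2, and with it from -0.70 to 0.31 for JUNB, -0.68 to 0.17 for EGR1 and -0.092 to 0.0089 for IER2. For the difference they ranged from -0.13 to 0.95 for EGR1, -0.44 to 0.14 for IER2 and -0.43 to 0.25 for IER3.

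Over all genes, the 302 calls of day 4 were 631 on the series values, 180 with array weights, 61 with the compared arrays alone and 28 to 142 with 1 array left out. The 2148 of day 16 were 1406, 1590, 1067 and 908 to 3076 in the same order. The 85 of the knockdown were 86, 418, 123 and 10 to 25. For time, 2824 and 5731 calls were as few as 1599 and 3258 with 1 array left out, and the 1229 for the difference were 694 with the compared arrays alone and 584 to 2136 with 1 array left out.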
